A study of Mus musculus with 8 samples.

Results

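The antioxidant, glutathione and Nrf2 target genes are a list of 33 named genes out of 30743 genes in an expression table of mouse gastrocnemius, a fast calf muscle. The list holds the superoxide dismutases and catalase, glutathione peroxidases, peroxiredoxins, thioredoxins and their reductases, the enzymes that make and recycle glutathione, glutathione S-transferases, and Nrf2 (gene Nfe2l2) with its inhibitor Keap1 and a few of its inducible targets. All 33 were found in the table, and all 33 were expressed highly enough to be tested. The question was which of these genes changed in muscle that grew under an Akt1 transgene.

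RNA was sequenced from 4 DTG mice, which carry both 1256[3Emut]Mck-rtTA and TRE-myrAkt1, and from 4 MckrtTA littermates, which carry 1256[3Emut]Mck-rtTA alone. The muscle creatine kinase promoter drives the doxycycline-dependent activator rtTA in skeletal muscle fibres, and in DTG mice rtTA switches on a membrane-targeted, active form of Akt1. All 8 mice were males aged 4 months, labelled strain Myo L8, that drank doxycycline at 0.5 mg/ml for 2 weeks and were starved overnight before collection. Each library is 1 mouse and is called by its number: DTG mice 253, 282, 283 and 306, and MckrtTA mice 255, 280, 281 and 307. Values are signal, the estimated reads of a gene scaled so that the upper quartile of genes is the same in every library. Signal is not divided by gene length.

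Cells detoxify superoxide in steps. Superoxide dismutases turn it into hydrogen peroxide. Catalase splits hydrogen peroxide, and glutathione peroxidases and peroxiredoxins reduce it to water. Glutathione and thioredoxin supply these peroxidases and peroxiredoxins with electrons, which come from NADPH. Nrf2 is a transcription factor that Keap1 holds in the cytosol and marks for degradation through a Cul3 ubiquitin ligase. Oxidants and electrophiles release Nrf2, which then pairs with small Maf proteins on antioxidant response elements and switches on genes such as Nqo1, Hmox1, Txnrd1, Srxn1, Gclc and Gclm. Muscle fibres carry many mitochondria and rely on the mitochondrial members of these families, Sod2, Prdx3, Txn2 and Txnrd2.

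Several facts of the whole series bear on every value below. Akt1 signal was 69301, 63102, 44224 and 37986 in DTG mice 253, 282, 283 and 306, against 4955, 4047, 5054 and 4433 in MckrtTA mice 255, 280, 281 and 307, so the transgene was on in each DTG library. Libraries held 46.0 to 54.0 M estimated reads in DTG mice and 45.6 to 58.6 M in MckrtTA mice. Total signal was 1.91 times higher in MckrtTA than in DTG libraries. The median log2 fold change (DTG minus MckrtTA) of all genes was -0.26 on the deposited scale, and setting all libraries to equal totals moved it up by 0.92. The cell makeup differed between groups as well. Summed macrophage marker signal was 60926 to 232657 in DTG and 4610 to 5837 in MckrtTA libraries, with 10 of 10 markers called higher, and summed fibroblast marker signal was 153300 to 767664 in DTG and 86398 to 109315 in MckrtTA libraries, with 5 of 6 called higher. Summed muscle fibre marker signal was 4015686 to 8571743 in DTG and 15819036 to 17883670 in MckrtTA libraries, with 4 of 8 called lower. Markers of regenerating fibres and satellite cells were called higher for 5 of 6, and no muscle fibre marker was at 0 in any library. In bulk muscle, fewer cells of a type and less RNA per cell cannot be told apart. DTG mouse 253 stood apart from the other 3 DTG mice in these sums, with 60926 for macrophages against 168189 to 232657, and 8571743 for muscle fibres against 4015686 to 5081608. Members whose call turned on this mouse are given with and without it.

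Nrf2 acts through the antioxidant response element, and letters of its form TGACNNNGC are shown for the members whose promoter window holds them. RefSeq promoters (GRCm38.p6, from 250 bases before to 50 bases after the start) were found for 27 of the 33 members, and TGACNNNGC was searched on both strands. It was in the window of 6 of these 27 genes (22.2%) and of 14.0% of all 27025 genes with a window. Counted by window it was in 17.6% of the 34 windows of members and in 12.4% of all 32851 windows. Capitals mark the match, which reads TGACNNNGC from left to right for Nfe2l2 and on the other strand for the other 5. The bases around it run 5′ to 3′ towards the gene.
Prdx1: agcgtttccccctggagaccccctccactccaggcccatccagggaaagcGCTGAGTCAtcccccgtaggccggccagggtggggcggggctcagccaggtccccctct
Txnrd1: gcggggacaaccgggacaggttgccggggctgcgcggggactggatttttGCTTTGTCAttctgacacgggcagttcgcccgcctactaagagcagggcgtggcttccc
Gclm: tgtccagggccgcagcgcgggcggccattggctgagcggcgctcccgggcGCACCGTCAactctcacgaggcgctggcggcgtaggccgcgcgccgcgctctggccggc
Nfe2l2: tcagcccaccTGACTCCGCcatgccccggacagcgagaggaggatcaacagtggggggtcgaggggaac
Sod1: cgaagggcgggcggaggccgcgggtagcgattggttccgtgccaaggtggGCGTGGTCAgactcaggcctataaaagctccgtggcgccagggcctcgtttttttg
Srxn1: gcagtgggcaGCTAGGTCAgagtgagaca
These stretches lie at chr4:116685416-116685524 (plus strand) for Prdx1, chr10:82859064-82859172 (plus) for Txnrd1, chr3:122245373-122245481 (plus) for Gclm, chr2:75704845-75704913 (minus) for Nfe2l2, chr16:90220656-90220761 (plus) for Sod1 and chr2:152105542-152105570 (plus) for Srxn1. The first base of the match was 133 bases before the start in Prdx1, 92 in Txnrd1, 134 in Gclm, 240 in Nfe2l2 and 56 in Sod1, and 28 bases after it in Srxn1. For Txnrd1 this holds for the window chr10:82858956-82859255 only. Its windows chr10:82833701-82834000 and chr10:82860091-82860390, at other starts, held no match. The match in Prdx1 overlaps the related AP-1 motif TGANTCA, which 7.81% of all windows hold. TGANTCA was also in the windows of Srxn1, Gstp1 and Glrx, apart from any TGACNNNGC match. Sod3, Prdx6, Gsr, Gclc, Hmox1 and Gsta4 were not searched. A match is a description of letters and not a measured site. Other forms of the element and bases outside the window were not searched, so a gene without a match may still hold an element.

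A gene was called when its limma adjusted p was at most 0.005 and its fold change at least 2. By this rule 5 members rose in DTG muscle (Hmox1, Prdx4, Gpx8, Sod3 and Gpx1), 6 fell (Gstm1, Nqo1, Sod2, Gstm2, Keap1 and Prdx3) and 22 were not called. Of all 15073 genes tested, 14.6% were called higher and 16.0% called lower, so the share of members called is close to that of genes at large in both directions. The median log2 fold change was -0.59 over the members and -0.26 over all genes. All 4 DTG libraries lay above all 4 MckrtTA libraries for 7 members and below them for 18, while 22.2% of all genes had the first pattern and 40.4% the second. The 11 calls held when any 1 mouse was left out. On equal totals the 5 higher calls held and 6 more were made (Glrx, Gpx7, Gss, Nfe2l2, Srxn1 and Txn1), but of the lower calls Gstm1 alone held. Of all genes, 30.8% were called higher and 2.0% lower on that scale, so the members were again close to genes at large. The plot of members by library shows each value beside the MckrtTA mean. In mm10 coordinates, the genes called higher lie at chr8:75093618-75100593 (Hmox1), chrX:155323920-155338454 (Prdx4), chr13:113042763-113046388 (Gpx8), chr5:52363804-52369738 (Sod3) and chr9:108339080-108340344 (Gpx1). The genes called lower lie at chr3:108012250-108017973 (Gstm1), chr8:107388225-107403205 (Nqo1), chr17:13007839-13040063 (Sod2), chr3:107981702-107986436 (Gstm2), chr9:21229730-21239332 (Keap1) and chr19:60864066-60874538 (Prdx3).

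**Figure D1:**
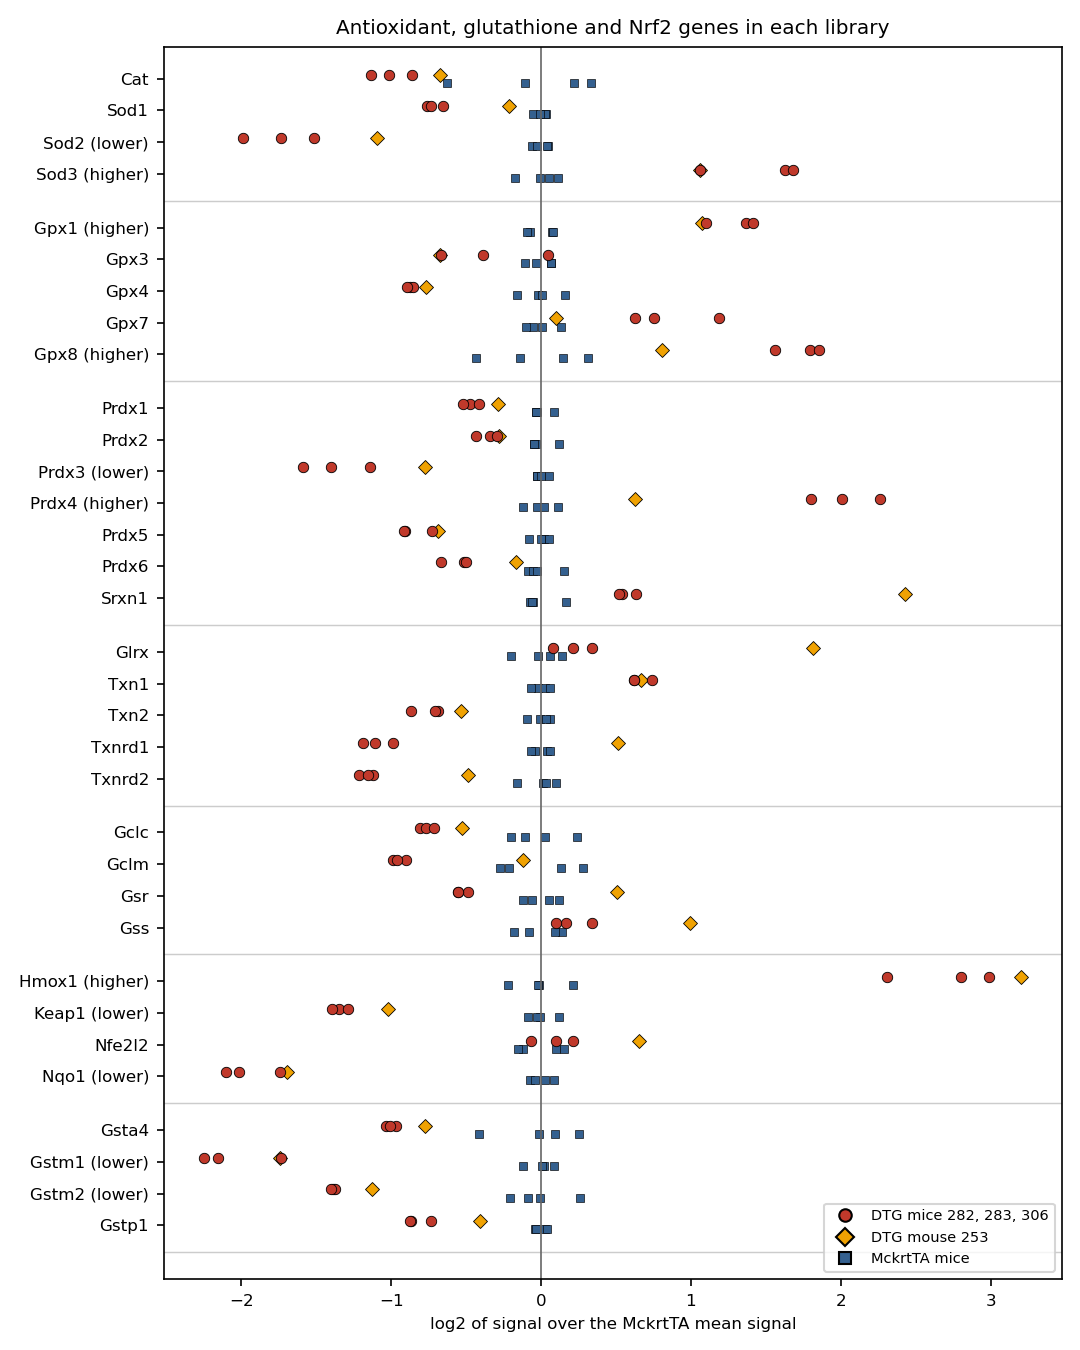
Signal of each of the 33 members in each library as log2 of the ratio to the mean of the 4 MckrtTA libraries, grouped by role from superoxide dismutases and catalase at the top to glutathione S-transferases at the bottom. Circles are DTG mice 282, 283 and 306, diamonds DTG mouse 253 and squares MckrtTA mice, and names marked higher or lower are the 11 called members. Hmox1 lies furthest to the right and Gstm1 and Nqo1 furthest to the left, and mouse 253 lies far to the right of the other DTG mice for Srxn1, Glrx and Txnrd1.

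The superoxide dismutases moved apart by compartment. Sod2, the manganese enzyme of the mitochondrial matrix, had a signal of 16223, 10371, 8690 and 12069 in DTG mice 253, 282, 283 and 306, against 35750, 33122, 33882 and 35517 in MckrtTA mice 255, 280, 281 and 307. Each DTG library was below each MckrtTA library, and Sod2 fell by 1.58 on the log2 scale (SE 0.17, limma adjusted p = 4.5e-05). Sod3, the secreted enzyme that binds to extracellular matrix, had 2117, 3132, 3251 and 2119 in DTG mice, against 1097, 899, 1054 and 1009 in MckrtTA mice. It rose by 1.35 (SE 0.16, limma adjusted p = 8.2e-05) with no overlap between the groups. Sod1, the cytosolic copper and zinc enzyme, averaged 8272 ± 1575 in DTG and 12307 ± 345 in MckrtTA mice (SD, n = 4 each). Its log2 fold change of -0.59 (SE 0.13) had a limma adjusted p of 0.00227 but was under 2-fold. Catalase, the peroxisomal enzyme that splits hydrogen peroxide, had 12245, 9680, 8893 and 10747 in DTG mice, against 24640, 18122, 12659 and 22748 in MckrtTA mice. The log2 fold change of Cat was -0.88 (limma adjusted p = 0.00389), short of 2-fold, with MckrtTA mouse 281 the lowest of its group, and without that mouse it was -1.07 and called. Per kb of transcript, Sod1 made up 65.7% ± 1.79 of the signal of the 4 genes in DTG and 58.7% ± 3.60 in MckrtTA mice, Sod2 10.2% ± 1.29 in DTG and 18.02% ± 1.13 in MckrtTA mice, and Sod3 3.76% ± 1.28 in DTG and 0.830% ± 0.0937 in MckrtTA mice (SD, n = 4 each).

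The glutathione peroxidases included 2 of the 5 higher calls and no lower one by limma, although 2 of the 5 genes were lower at an unadjusted p under 0.05. Gpx1, the abundant cytosolic and mitochondrial selenoenzyme, had a signal of 9147, 11203, 11566 and 9306 in DTG mice 253, 282, 283 and 306, against 4113, 4566, 4590 and 4071 in MckrtTA mice 255, 280, 281 and 307. It rose by 1.24 on the log2 scale (SE 0.11, limma adjusted p = 1.2e-05), and every DTG value was far above every MckrtTA value. Gpx8, an endoplasmic reticulum member without selenocysteine, had 559, 1114, 1157 and 945 in DTG mice, against 355, 290, 398 and 237 in MckrtTA mice. It rose by 1.50 (SE 0.25, limma adjusted p = 0.000539), with mouse 253 nearest to the MckrtTA range. Gpx7, the other endoplasmic reticulum member, had a log2 fold change of 0.66 and was not called (limma adjusted p = 0.0166). Gpx4, which reduces lipid peroxides in membranes and guards cells from ferroptosis, had 14445, 13433, 13595 and 13256 in DTG mice, against 22038, 24202, 27453 and 24661 in MckrtTA mice. Its log2 fold change was -0.84 (SE 0.09, limma adjusted p = 5.0e-05), under 2-fold although the groups were well apart. Gpx3, the secreted plasma form, had a log2 fold change of -0.42 (limma adjusted p = 0.0397) with overlapping groups. Per kb of transcript, Gpx1 took 27.6% ± 1.23 of the class signal in DTG and 9.52% ± 0.493 in MckrtTA mice, and Gpx4 40.6% ± 4.78 in DTG and 59.1% ± 1.85 in MckrtTA mice (SD, n = 4 each).

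Among the peroxiredoxins, thiol enzymes that reduce peroxides, the endoplasmic reticulum form rose and the mitochondrial form fell. Prdx4, which resides in the endoplasmic reticulum and aids oxidative protein folding, had a signal of 687, 1793, 2136 and 1549 in DTG mice 253, 282, 283 and 306, against 436, 452, 481 and 409 in MckrtTA mice 255, 280, 281 and 307. It rose by 1.66 on the log2 scale (SE 0.30, limma adjusted p = 0.000974), and by 2.00 without mouse 253, which lay between the other DTG mice and the MckrtTA mice. Prdx3, the mitochondrial form, had 13642, 8820, 7754 and 10545 in DTG mice, against 24157, 22884, 22849 and 23303 in MckrtTA mice. It fell by 1.22 (SE 0.16, limma adjusted p = 0.000129). The other 4 had every DTG library below every MckrtTA library without reaching 2-fold. Their log2 fold changes were -0.42 for Prdx1, -0.34 for Prdx2, -0.81 for Prdx5 and -0.46 for Prdx6. Srxn1, sulfiredoxin, which restores overoxidised peroxiredoxins, is described with mouse 253. Per kb of transcript, Prdx3 was 22.5% ± 2.61 of the signal of this group, Srxn1 included, in DTG and 36.1% ± 0.415 in MckrtTA mice, and Prdx4 5.42% ± 2.60 in DTG and 1.03% ± 0.0921 in MckrtTA mice (SD, n = 4 each).

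Of the 5 thioredoxin, thioredoxin reductase and glutaredoxin genes limma called 0 with all 8 libraries, and at an unadjusted p under 0.05 there were 1 higher and 2 lower. Txn1, the cytosolic thioredoxin, averaged 6472 ± 260 in DTG and 4090 ± 154 in MckrtTA mice, and Txn2, the mitochondrial one, 8547 ± 814 in DTG and 13840 ± 619 in MckrtTA mice (SD, n = 4 each). Their log2 fold changes were 0.66 and -0.70, with limma adjusted p of 5.5e-05 and 0.000142, and neither pair of groups overlapped. Txnrd2, the mitochondrial thioredoxin reductase, had a signal of 1458, 882, 939 and 920 in DTG mice 253, 282, 283 and 306, against 2058, 2092, 1831 and 2193 in MckrtTA mice 255, 280, 281 and 307. Its log2 fold change was -0.98 (SE 0.16, limma adjusted p = 0.000508), -1.15 and called without DTG mouse 253, and -1.03 and called without MckrtTA mouse 281.

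None of the 4 genes of glutathione synthesis and recycling was called by limma, and 2 were lower at an unadjusted p under 0.05. Glutathione is made by glutamate-cysteine ligase, whose catalytic subunit is Gclc and whose modifier subunit is Gclm, and then by glutathione synthetase, Gss. Gclc had a signal of 1751, 1439, 1480 and 1540 in DTG mice 253, 282, 283 and 306, against 2195, 2569, 2347 and 2978 in MckrtTA mice 255, 280, 281 and 307. All DTG libraries were below all MckrtTA libraries, at a log2 fold change of -0.69 (SE 0.12, limma adjusted p = 0.000587) that was under 2-fold. Gclm had 1403, 817, 769 and 781 in DTG mice, against 1260, 1670, 1312 and 1851 in MckrtTA mice. Mouse 253 overlapped the MckrtTA range and the other 3 DTG mice did not, and the log2 fold change was -0.72 (SE 0.21, limma adjusted p = 0.0138), and -0.92 without mouse 253 (limma adjusted p = 1.9e-04). Gss had 1192, 671, 755 and 640 in DTG mice, against 659, 566, 636 and 528 in MckrtTA mice. Its log2 fold change of 0.40 (limma adjusted p = 0.0929) was carried mainly by mouse 253 and was 0.20 without it. Gsr, glutathione reductase, which returns oxidised glutathione to its reduced form, is described with mouse 253.

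The 4 glutathione S-transferases, which attach glutathione to electrophiles, were all lower in every DTG library than in any MckrtTA library, and 2 of them were called. Gstm1, a mu-class enzyme, had a signal of 5863, 4412, 4136 and 5893 in DTG mice 253, 282, 283 and 306, against 18079, 19872, 19741 and 20796 in MckrtTA mice 255, 280, 281 and 307. It fell by 1.97 on the log2 scale (SE 0.13, limma adjusted p = 4e-06), and it was the single lower call that also held on equal totals. Gstm2, of the same class, had 2595, 2167, 2187 and 2150 in DTG mice, against 4930, 5654, 6792 and 5358 in MckrtTA mice. It fell by 1.31 (SE 0.12, limma adjusted p = 1.5e-05). Gsta4, which conjugates the lipid peroxidation product 4-hydroxynonenal, and Gstp1, the pi-class enzyme, had log2 fold changes of -0.92 and -0.72 and were not called, though Gsta4 was called at -1.05 without MckrtTA mouse 307. The mu-class genes are close copies of each other, as are Gstp1 and Gstp2, so how reads were divided among them is uncertain. Gstp1 was the largest of the 4 per kb of transcript, at 62.5% ± 2.91 of the class signal in DTG and 45.8% ± 1.53 in MckrtTA mice (SD, n = 4 each).

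On the deposited scale Nrf2 itself was not called, its inhibitor fell, and 2 of its best known targets moved in opposite directions. Nfe2l2 had a signal of 9169, 6248, 5545 and 6746 in DTG mice 253, 282, 283 and 306, against 5357, 6236, 5225 and 6459 in MckrtTA mice 255, 280, 281 and 307. The groups overlapped, with a log2 fold change of 0.23 (SE 0.15, limma adjusted p = 0.206). On equal totals Nfe2l2 was called higher at 1.18 (limma adjusted p = 1.1e-05), which was 0.53 above the median of all genes on that scale. Keap1 had 3735, 2971, 2884 and 3102 in DTG mice, against 7123, 7534, 7444 and 8222 in MckrtTA mice. It fell by 1.26 on the log2 scale (SE 0.10, limma adjusted p = 9e-06), with the highest DTG value well under the lowest MckrtTA value. Keap1 was not called on equal totals (-0.31) or after scaling by a trimmed mean of log ratios (-0.95). Hmox1, heme oxygenase 1, which breaks heme down to biliverdin, iron and carbon monoxide, had 6337, 5473, 4789 and 3405 in DTG mice, against 682, 679, 590 and 798 in MckrtTA mice. It rose by 2.82 (SE 0.18, limma adjusted p = 3e-06), the largest change of any member. Nqo1, a quinone reductase that uses NADPH, had 1431, 1146, 1079 and 1387 in DTG mice, against 4394, 4712, 4496 and 4916 in MckrtTA mice. It fell by 1.88 (SE 0.11, limma adjusted p = 2e-06). Both genes are textbook Nrf2 targets. Hmox1 is also high in macrophages, whose 10 markers were all called higher in DTG mice, and the part of cell makeup in its rise was not tested. In mouse 253 Hmox1 was the highest of the 4 DTG mice on the deposited scale and 0.968-fold the mean of the other 3 on equal totals. The myeloid markers of mouse 253 are given here as a description, and their relation to Hmox1 was not tested. On the deposited scale the macrophage sum was the lowest of the 4 DTG mice, and 9 of its 10 markers lay between the other DTG mice and the MckrtTA mice. The exception was Itgam, with 10023 in mouse 253 against 5175 to 7102 in the other DTG mice. The neutrophil sum was the highest there, with 802 against 201 to 392.1, and S100a8 gave 463 and S100a9 337 of it. Mpo of that list was 0 in mouse 253 and 5.3, 6.6 and 7.5 in DTG mice 282, 283 and 306. Those are only a few reads, since a read is 1.25 to 1.68 of signal in DTG libraries. The place of mouse 253 for these markers was not read on equal totals.

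Ratios of 2 members within a library do not move with the scaling, and 9 pairs of isoforms or partners were compared with a two-sided exact permutation test, for which 0.0286 is the smallest p that 4 against 4 mice can give. Each of 6 pairs reached it, with an adjusted p of 0.0429 over the 9 pairs, and these groups did not overlap. How many pairs of other genes would separate the groups was not counted. Separation was common for single genes, with 22.2% of all genes above and 40.4% below in every DTG library. Sod2/Sod1 was 1.42 ± 0.196 in DTG and 2.81 ± 0.117 in MckrtTA mice (SD, n = 4 each). Prdx3/Prdx1 was 0.590 ± 0.123 in DTG and 1.01 ± 0.0501 in MckrtTA mice, and Txn2/Txn1 was 1.32 ± 0.155 in DTG and 3.38 ± 0.0702 in MckrtTA mice. In these 3 pairs the mitochondrial form was thus lower relative to the cytosolic form in every DTG mouse. The mitochondrial genome took 10.95% to 15.8% of the signal in DTG and 17.4% to 20.5% in MckrtTA libraries, and its part in these ratios was not tested. Gpx4/Gpx1 was 1.35 ± 0.193 in DTG and 5.67 ± 0.401 in MckrtTA mice, the largest shift of the 9 at a log2 difference of -2.09. Keap1/Nfe2l2 was 0.466 ± 0.0465 in DTG and 1.31 ± 0.0919 in MckrtTA mice, a log2 difference of -1.49 that included mouse 253 at 0.407. Gstm2/Gstm1 was 0.457 ± 0.0708 in DTG and 0.290 ± 0.0378 in MckrtTA mice, the only one of the 6 that was higher in DTG mice. The remaining 3 pairs overlapped. Prdx2/Prdx1 was 0.463 ± 0.0375 in DTG and 0.436 ± 0.0360 in MckrtTA mice (exact permutation p = 0.371), Txnrd2/Txnrd1 was 0.110 ± 0.0312 in DTG and 0.131 ± 0.0143 in MckrtTA mice (exact permutation p = 0.314), and Gclm/Gclc was 0.599 ± 0.137 in DTG and 0.601 ± 0.0420 in MckrtTA mice (exact permutation p = 0.943). For these 3 pairs no difference was detectable with 4 mice a group.

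**Figure D2:**
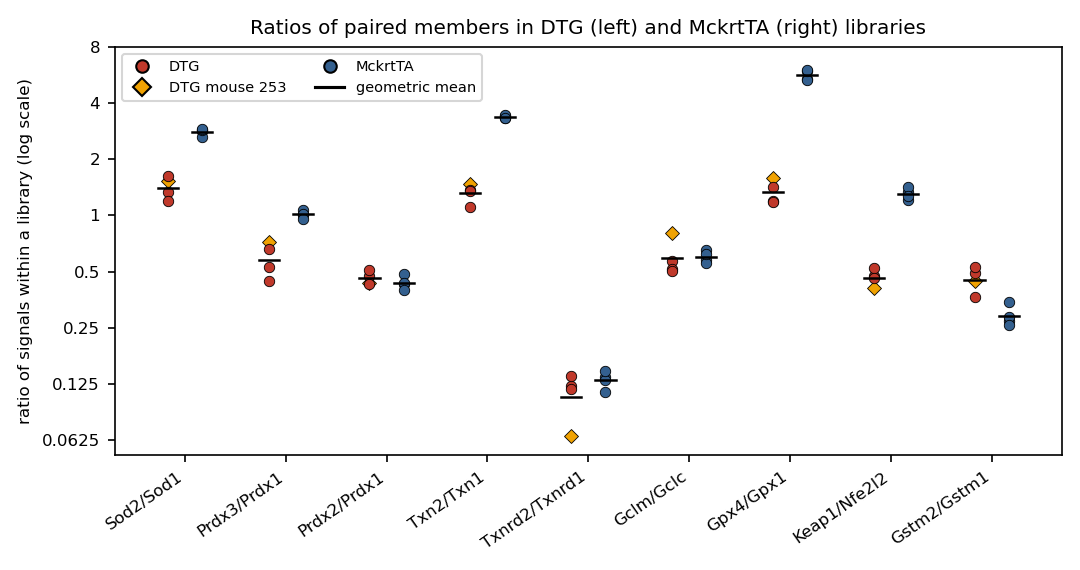
Ratio of the signals of 2 members within each library, on a log scale, for the 9 pairs, with DTG mice to the left (circles, and a diamond for mouse 253) and MckrtTA mice to the right of each pair, and a black line at the geometric mean. The 5 pairs with lower ratios in DTG mice and the higher Gstm2/Gstm1 ratio do not overlap, and Gclm/Gclc and Txnrd2/Txnrd1 differ among DTG mice mainly by mouse 253.

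DTG mouse 253 stood apart for several Nrf2 targets. On the deposited scale it was the highest of all 8 libraries for 7 of the 33 members (Txnrd1, Glrx, Gsr, Gss, Srxn1, Nfe2l2 and Hmox1), and it held this place for 14.2% of all genes. For 21 members it lay between the other 3 DTG mice and the 4 MckrtTA mice, as it did for 39.3% of all genes. Srxn1 had a signal of 19174 in mouse 253 and 5524, 5175 and 5107 in DTG mice 282, 283 and 306, against 3385, 3434, 3418 and 3994 in MckrtTA mice 255, 280, 281 and 307. Mouse 253 was thus 3.64-fold above the mean of the other DTG mice, which were themselves above all MckrtTA mice. The log2 fold change of Srxn1 was 1.03 (SE 0.38, limma adjusted p = 0.0365) with all mice and 0.57 without mouse 253 (limma adjusted p = 8.2e-05). Txnrd1, the cytosolic thioredoxin reductase, had 22309 in mouse 253 and 7249, 6846 and 7879 in the other DTG mice, against 15184, 16004, 16273 and 14921 in MckrtTA mice. Here mouse 253 lay above the MckrtTA mice and the other 3 DTG mice below them. The log2 fold change of -0.69 was not called (limma adjusted p = 0.0925), and without mouse 253 Txnrd1 fell by 1.09 (limma adjusted p = 5.2e-07). Glrx, the cytosolic glutaredoxin that removes glutathione from proteins, had 11526 in mouse 253 and 4143, 3792 and 3465 in the other DTG mice, against 3232, 2847, 3407 and 3605 in MckrtTA mice. The other DTG mice overlapped the MckrtTA range, and the log2 fold change was 0.62 with all mice and 0.22 without mouse 253. Gsr had 4931 in mouse 253 and 2471, 2363 and 2362 in the other DTG mice, against 3185, 3598, 3332 and 3762 in MckrtTA mice. Its log2 fold change was -0.27 with all mice (limma adjusted p = 0.306) and -0.53 without mouse 253 (limma adjusted p = 1.1e-04).

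The place of mouse 253 depended in part on the scaling. On equal totals it remained the highest of 8 libraries for 5 of the 7 members, lost that place for Nfe2l2 and Hmox1 and gained it for Gclm. The share of all genes with this place on equal totals was not counted. Set against the other DTG mice (their mean), it was then 2.54-fold higher for Srxn1, 2.13-fold for Txnrd1, 2.12-fold for Glrx and 1.44-fold for Gsr. Of the 6 members with TGACNNNGC in a promoter window, Srxn1 and Txnrd1 were highest of all in mouse 253 on both scales. Nfe2l2 was so on the deposited scale alone and Gclm on equal totals alone. Set against the other 3 DTG mice by their mean, Gclm in mouse 253 was 1.78 times as high on the deposited scale and 1.24 times on equal totals, Sod1 1.42 and 0.990 times, and Prdx1 1.14 and 0.792 times. Nqo1, a target of the same factor, was 1.19 times as high on the deposited scale and 0.834 times on equal totals. Prdx4 (0.376 and 0.262 times) and Gpx8 (0.522 and 0.363 times) were lower in mouse 253 than in the other DTG mice on both scales.

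**Figure D3:**
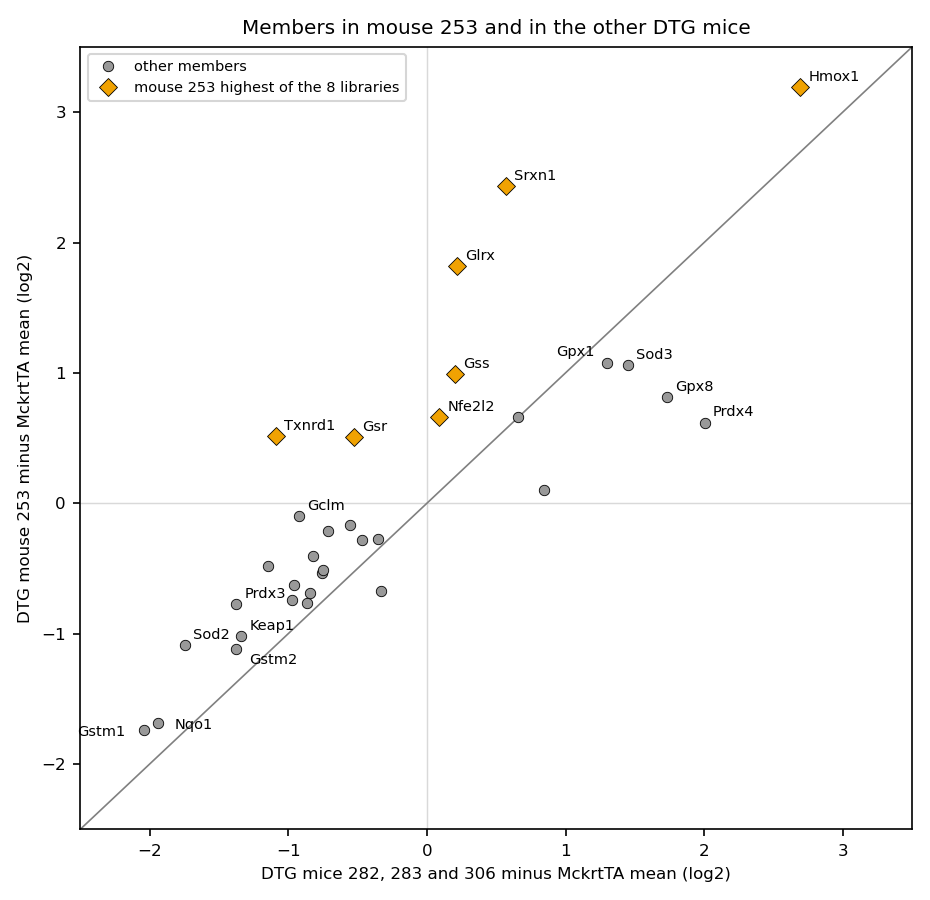
Mean log2 difference from the MckrtTA mice for each member, in DTG mice 282, 283 and 306 (x axis) and in DTG mouse 253 (y axis), with the diagonal marking equal differences. Diamonds are the 7 members for which mouse 253 was the highest of 8 libraries. Srxn1, Glrx and Txnrd1 lie far above the diagonal, and Prdx4, Gpx8, Sod3 and Gpx1 below it.

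The rest of the redox system was described with 87 tested genes of 5 lists, of which 16 were called higher and 17 lower. Of all 15073 genes tested, 14.6% were called higher and 16.0% lower, and the counts of each list below stand beside these shares. Of 9 genes that supply NADPH, the 2 dehydrogenases of the oxidative pentose phosphate pathway rose and 2 others fell. G6pdx, its first enzyme, had a signal of 1194, 1818, 1763 and 1483 in DTG mice 253, 282, 283 and 306, against 441, 438, 473 and 380 in MckrtTA mice 255, 280, 281 and 307, a log2 fold change of 1.82 (SE 0.15, limma adjusted p = 1.0e-05). Pgd, the other dehydrogenase, rose by 1.21 (SE 0.09, limma adjusted p = 7.8e-06). Me1, cytosolic malic enzyme, had 23345, 10181, 9667 and 9797 in DTG mice, against 43946, 50685, 49370 and 53406 in MckrtTA mice, a log2 fold change of -2.01 (SE 0.27, limma adjusted p = 0.00014). Idh2, the mitochondrial isocitrate dehydrogenase that makes NADPH, had a log2 fold change of -1.06 (SE 0.22, limma adjusted p = 0.0019). The other 5 genes of this list were not called.

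Of 11 tested genes of NADPH oxidase and xanthine oxidase, which produce superoxide and hydrogen peroxide, 8 rose and 0 fell by limma (1 was lower at an unadjusted p under 0.05). Rac2, the small GTPase of the phagocyte oxidase, had a signal of 1664, 2529, 3042 and 2214 in DTG mice 253, 282, 283 and 306, against 65, 73, 71 and 71 in MckrtTA mice 255, 280, 281 and 307. It rose by 4.86 on the log2 scale (limma adjusted p = 2.8e-07), and the cytosolic subunit Ncf1 rose by 4.24. Rac2 and Ncf1 are mainly expressed in phagocytes, and the macrophage sum given above was also higher in DTG libraries. Of the 11 genes, mouse 253 lay between the other DTG mice and the MckrtTA mice for 7. It was the highest of 8 for 1 (Xdh) and the lowest for 1 (Noxo1). The part of cell makeup in these changes was not tested. Nox4, an oxidase of muscle and fibroblasts, and Xdh, xanthine dehydrogenase, were also called and rose by 1.95 and 1.46, and these 2 were named after their values were seen.

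Of 23 other partners, regulators and targets of Nrf2, 4 rose and 3 fell. The 3 with the smallest adjusted p were Akr1b8, an aldo-keto reductase, and Ugdh, which makes UDP-glucuronate, at log2 fold changes of 2.99 and 1.51, and Aox1, aldehyde oxidase, at -1.12. Cul3, the ubiquitin ligase scaffold that Keap1 recruits, was named after its values were seen. It had a signal of 18908, 10995, 10119 and 10979 in DTG mice 253, 282, 283 and 306, against 35884, 40632, 41689 and 37358 in MckrtTA mice 255, 280, 281 and 307, and fell by 1.65 on the log2 scale (SE 0.19, limma adjusted p = 5.8e-05). Of 20 tested thiol and selenoprotein genes 1 rose and 7 fell, and the 3 with the smallest adjusted p were Msrb3, a methionine sulfoxide reductase (-2.07), Sepw1, selenoprotein W (-2.05), and Oxr1, an oxidation resistance gene (-1.05). Of 24 other tested glutathione genes 1 rose and 5 fell, and the 3 with the smallest adjusted p were Oplah, 5-oxoprolinase (-1.48), Gstk1, a mitochondrial and peroxisomal transferase (-1.87), and Chac2, which degrades glutathione and was not called (-0.90). Chac1, which also degrades glutathione, was named after its values were seen. It had a signal of 4271, 349, 412 and 743 in DTG mice 253, 282, 283 and 306, against 6110, 7454, 5089 and 7207 in MckrtTA mice 255, 280, 281 and 307, and fell by 2.94 on the log2 scale (SE 0.67, limma adjusted p = 0.0035), with a log2 fold change of -3.72 without mouse 253.

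Mouse 253 was the highest of 8 libraries for 11 of these 87 genes, close to the 14.2% of all genes. Of the 11, 6 were in the list of Nrf2 partners, regulators and targets. It was the lowest of 8 for 9 of the 87, beside 2302 of all 15073 genes tested. Of those 9, 3 were in the same Nrf2 list (Bach1, Ephx1 and Cbr3), so that list did not move 1 way in mouse 253. The following 3 were named after their high values were seen, and Sesn2 is from the thiol and selenoprotein list. Sesn2, sestrin 2, a stress-inducible gene, had a signal of 1839 in mouse 253 and 295, 300 and 271 in DTG mice 282, 283 and 306, against 239, 335, 198 and 377 in MckrtTA mice 255, 280, 281 and 307. Osgin1, an oxidative stress response gene, had 4742 in mouse 253 and 2024, 1782 and 1375 in the other DTG mice, against 1431, 1672, 1662 and 1522 in MckrtTA mice. Mafk, a small Maf partner of Nrf2, had 3794 in mouse 253 and 1297, 1153 and 1647 in the other DTG mice, against 2343, 2724, 2269 and 2724 in MckrtTA mice. None of the 3 was called between the groups, at log2 fold changes of 0.71 for Sesn2, 0.49 for Osgin1 and -0.52 for Mafk. Without mouse 253 these were 0.05, 0.12 and -0.89, and again none was called.

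Because the scaling shifts all genes together, each member was also read against the median of all genes. On the deposited scale 22 members lay below that median and 11 above it, and on equal totals 21 lay below and 12 above. Relative to it, Hmox1 was 3.08 higher on the log2 scale, Prdx4 1.92, Gpx8 1.77, Sod3 1.62 and Gpx1 1.51, while the values were -1.70 for Gstm1, -1.61 for Nqo1, -1.32 for Sod2, -1.05 for Gstm2, -0.99 for Keap1 and -0.96 for Prdx3. A trimmed mean of log ratios kept the 5 higher calls and 4 of the 6 lower calls, without Keap1 and Prdx3. On that scale 2734 of all 15073 genes tested were called higher and 1256 lower. Within sequencing lanes, lane 8 (DTG mice 282 and 306, MckrtTA mice 280 and 307) called 5 members higher and 9 lower. The share of all genes called in lane 8 was not counted. Lane 1 (DTG mice 253 and 283, MckrtTA mice 255 and 281) called 0 members by limma, against 54 of all genes higher and 4 lower. At an unadjusted p under 0.05 it had 7 members higher and 11 lower, beside 16.4% and 27.2% of all genes, and all 11 called members kept their sign there.

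**Figure D4:**
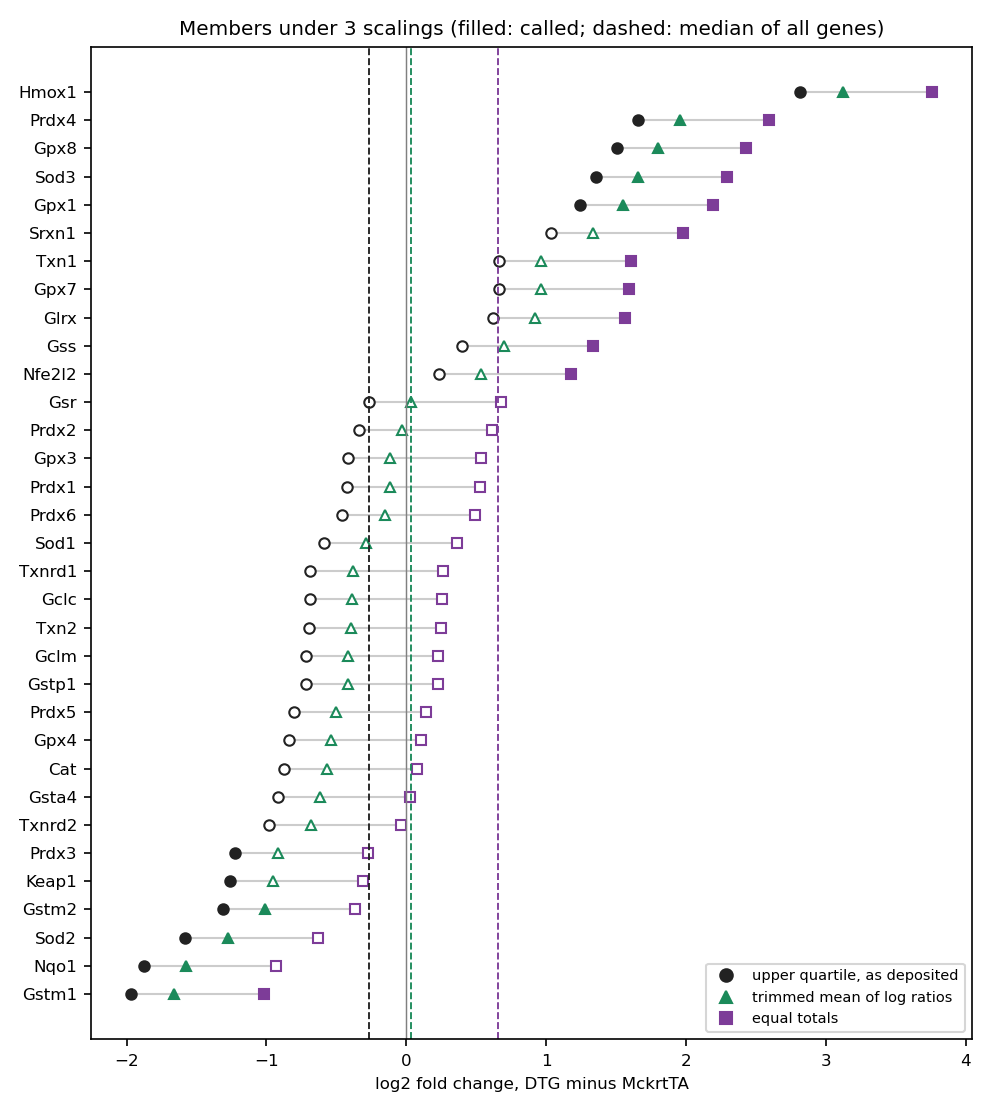
Log2 fold change (DTG minus MckrtTA) of the 33 members on the deposited upper-quartile scale (circles), after scaling by a trimmed mean of log ratios (triangles) and on equal totals (squares), ordered by the deposited value. Filled symbols are called, and dashed lines mark the median of all genes in the same colours, at -0.26, 0.03 and 0.65. The 5 members at the top are filled on all 3 scales, and at the bottom Gstm1 alone is.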

How the data were processed

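Gastrocnemius poly(A) RNA of 4 DTG and 4 MckrtTA mice was sequenced as paired reads from stranded libraries on 2 lanes. The authors trimmed adaptors, mapped reads to mm10 with RSEM (the labels also name BWA) and deposited estimated reads scaled by the upper quartile of each library, a signal that is not divided by length. In low values, 88.3% to 89.6% lay within 0.1 of whole reads, so count tests were not run. Estimated reads, the signal divided by that of a read, served for library sizes, the trimmed mean of log ratios and a filter. The columns of all 8 libraries were used.

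In R 4.3.3 with limma 3.58.1, log2(signal + 10) was fitted without covariates, with a mean trend, for 15073 genes whose signal reached 25 in at least 3 libraries. Fold changes are on this log2(signal + 10) scale, which understates changes of low genes. Calls needed a Benjamini-Hochberg adjusted p of 0.005 over all genes and 2-fold. The test was also run on simulated data with as many genes raised as lowered. That simulation lacked the difference in total signal and the deviating DTG mouse seen here, so it does not check the test under these conditions. Ratios were compared by exact permutation tests in scipy 1.17.1, adjusted over 9 pairs. P-values of limma set the difference between groups against the spread between mice, and those of the exact tests set it against all relabellings of the mice. Signal per kb was divided by the median length of the GENCODE transcripts that match the gene by RefSeq accession.

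The members and the lists were chosen with earlier results of these data known. All 33 members are described, with all libraries for called members and for Nfe2l2, Keap1, Nqo1, Hmox1, Gclc and Gclm, and of each other list the 3 genes with the smallest adjusted p, or all called genes where 5 or fewer were called. A gene that this rule names is not reported here. Members Gss, Prdx2, Prdx5 and Txnrd2 share exon bases with a gene on the opposite strand, and whether counting used strand is not given in the sources used here. Alternatives were other scalings, pseudocounts, filters and thresholds, lanes, and leaving out each mouse.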

Additional observations from a re-analysis of the deposited data

Results flagged for a closer look

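In groups of 4 mice, a library was marked when, on the log2 scale, its gap to the nearest other, divided by the range of the group, exceeded Dixon's 95% critical value, which chance gives in about 5% of groups. Of 66 groups of members 10 were marked, and in 7 of them the far library was the highest value, of DTG mouse 253. These were Srxn1 (0.941), Gsr (0.939), Gstm2 (0.909), Gclm (0.900), Txnrd1 (0.881), Txnrd2 (0.874) and Glrx (0.851). Marked groups made up 15.2% over the members and 8.76% over all genes tested. Mouse 253 was the far and highest library of its group for 21.2% of the members and 6.63% of all genes tested, a description of 1 mouse with no test. The remaining 3 were in MckrtTA mice, with the far value high in mouse 307 for Srxn1 (0.913) and Prdx1 (0.914) and in mouse 255 for Prdx2 (0.921). None of the 18 groups of ratios was marked.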

How the results depend on the processing

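On equal totals 11 members were called higher and 1 lower, the median member was 0.36, and other redox genes called were 28 higher and 3 lower. On equal totals the uncalled members Sod1 (0.36), Cat (0.073), Gpx3 (0.53), Gpx4 (0.11), Prdx1 (0.53), Prdx2 (0.61), Prdx5 (0.14), Prdx6 (0.49), Txn2 (0.25), Txnrd1 (0.26), Gsr (0.68), Gclc (0.25), Gclm (0.22), Gsta4 (0.023) and Gstp1 (0.23) changed sign to positive log2 values, which is the construction of that scaling, since it moves every gene up. The sign of Gsr also turned with the trimmed mean (0.035), the median of ratios (0.025) and lane 1 (0.067). With the trimmed mean and the median of ratios the median member was -0.29 and -0.30, and other redox genes called lower were 10 with each. Lane 1 alone, with 2 mice a group, called 0 members higher and 0 lower and 1 and 0 other redox genes, with a median member of -0.40. At an adjusted p of 0.05 with no fold minimum, 8 members were called higher and 20 lower, and 42 other redox genes lower. The share of all genes called at that threshold was not counted, so these counts have no background beside them. Leaving out 1 mouse gave 5 members higher throughout, 6 to 8 lower (8 without DTG mouse 253 and 8 without MckrtTA mouse 281), and medians of -0.72 to -0.53. Without DTG mouse 253, 2761 of all 15073 genes tested were called higher and 2878 lower. Other pseudocounts, filters, lane as a covariate and no trend in the moderation changed no member's call. No paired analysis was made, because the labels do not say which DTG and MckrtTA mice came from the same litter. Glrx, Gss and Gsr were under 2-fold on the deposited scale with and without mouse 253.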
